A study of Bos grunniens with 18 samples.

Results

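The testes of yak (Bos grunniens) at 18 months were compared with those at 6 months, gene by gene. The data are a table of 22183 genes from 9 males, 3 castrated at each of 3 ages, in which the tissue RNA had been depleted of ribosomal RNA before sequencing. The members are the 6 libraries of the 2 younger ages and all 22183 genes of the table, of which 16742 had enough counts to be tested. The 6-month group (Y6M) and the 18-month group (Y18M) hold 3 libraries each, 1 per animal, from testis of yaks of 1 cooperative, with no treatment named beside age. The 4-year animals (Y4Y) served as a reference for the direction of the step and for the estimate of spread. A further label gives each age a life stage, and its stages do not follow the ages: it puts adolescence at 6 months, adulthood at 18 months and infancy at 4 years. Groups were therefore taken from the ages in the sample titles, and "prepubertal" or "pubertal" is not a labelled property of any animal. Replicate numbers do not tie an animal of 1 age to one of another. Libraries are called 6-month and 18-month replicates 1, 2 and 3 below.

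The seminiferous tubules of a testis before puberty hold Sertoli cells and undifferentiated germ cells. At puberty, germ cells enter meiosis, and the first wave of spermatogenesis adds spermatocytes, then round spermatids, then elongating spermatids with a flagellum and an acrosome. The tubules grow while the interstitium, with its Leydig cells, fibroblasts and vessels, comes to make up a smaller part of the organ. In whole-tissue RNA, fewer cells of a type and less RNA per cell cannot be told apart.

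The 6 libraries held 24516575 to 28788270 counts. Markers of testis cells were measured in all of them. All 10 tested Leydig identifiers fell from 6 to 18 months, as did all 6 of interstitial fibroblasts, and all 4 germ line markers rose. In the Leydig list, and in the Sertoli list that follows, some identifiers share a symbol and are not separate markers. Of 15 Sertoli identifiers, 8 fell and 2 rose, and of 5 endothelial markers 4 fell and 1 rose. Of 10 macrophage identifiers, 6 rose and 2 fell, and some of them share a symbol. Their summed level was 339, 329 and 224 CPM at 6 months and 222, 277 and 246 CPM at 18 months. The 4 T cell markers had log2 fold changes of -1.29 to -0.47 without a call. Of the 5 markers of myoid cells and smooth muscle 2 rose and 1 fell, of 2 tested erythrocyte identifiers 1 rose, and of 3 tested markers of rete and epididymis 1 rose and 1 fell. The part of the cell types behind these lists in the results that follow was not tested.

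The 18-month libraries did not agree as closely as those of the other ages. The median gene spanned 1.09 on the log2 scale of CPM, counts scaled to the size of the library, over the 3 libraries of 18 months, against 0.41 at 6 months and 0.36 at 4 years. Replicate 1 lay next to the 4-year libraries (Pearson's r over genes 0.974 to 0.978). Replicate 2 stood nearest to 6 months (0.808 to 0.830), and its r with 18-month replicate 1 was 0.814. Replicate 3 lay between them, with r of 0.954 to replicate 1 and 0.915 to replicate 2. These coefficients are taken across genes of single libraries and describe the libraries only. Replicate 2 also carried 2.22% of its counts on 8 mitochondrially encoded genes, against at most 0.0116% in each of the other libraries. Results are therefore given by replicate, and with replicate 2 left out where that changes them.

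A gene was called when its Benjamini-Hochberg adjusted p in edgeR's quasi-likelihood test was under 0.05 over all genes tested. By this rule 10026 genes (59.9% of those tested) were called, 5481 higher (32.7%) and 4545 lower (27.1%) at 18 months. At least a 4-fold change was reached by 3279 genes that rose (19.6%) and 1279 that fell (7.64%). With scaling by library size alone, in place of the TMM factors used throughout, the median gene moved from 0.02 to 0.43 on the log2 scale, and 6930 genes were called higher and 2618 lower. Without 18-month replicate 2, 11953 genes were called, and 1939 fell at least 4-fold. The test and the standard errors below draw on a spread shared by all 9 libraries, those of 4 years included. The 18-month libraries spread more widely than the others. With the 6 compared libraries alone, 8311 genes were called, 4607 higher and 3704 lower. Any count of a gene group below is to be read against these shares.

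The rises and the falls differed in size. The called genes that rose had a median log2 fold change of 2.52, with an interquartile range of 1.34 to 5.19. Those that fell had a median of -1.46 and an interquartile range of -2.11 to -0.99. Among changes of less than 2-fold there were 838 rises and 1169 falls, an order that turned to 1243 rises and 561 falls with scaling by library size alone. Without 6-month replicate 1 there were 472 rises and 676 falls of this size, without 6-month replicate 2 484 and 749, without 6-month replicate 3 499 and 671, and without 18-month replicate 3 500 and 638. At 16-fold or more there were 1727 rises and 139 falls when genes without any count at 1 age are set to the bound that 3 counts over the group allow. At 256-fold or more, 395 rises and 4 falls remained on that bound. The genes that rose had started low: 2050 of them had a mean under 1 CPM at 6 months, and 350 had no count in any 6-month library. The median level of the genes that rose went from 3.46 to 30.8 CPM, and that of the genes that fell from 42.8 to 15.3 CPM. Only 377 of the genes that fell ended under 1 CPM, and 5 had no count at 18 months. The excess of rises at 16-fold or more was met under each scaling, with 2011 rises and 92 falls fitted by library size alone and 2076 and 236 without 18-month replicate 2.

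**Figure D1:**
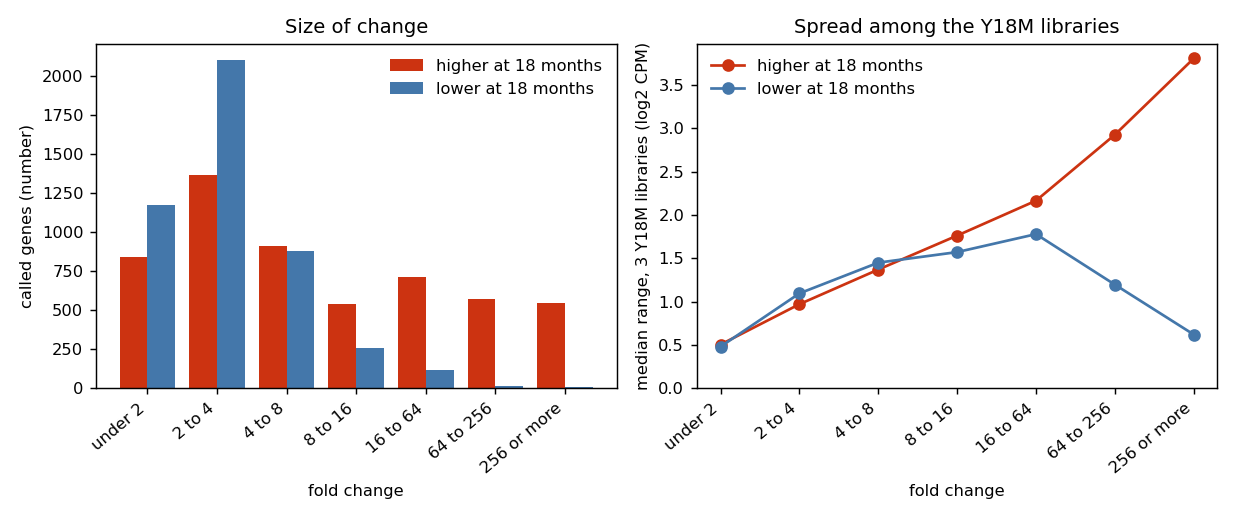
Left, the number of called genes in each bin of fitted fold change at 18 months against 6 months, higher and lower genes side by side. Right, the median range of log2 CPM over the 3 Y18M libraries for the genes of each bin, on the same fold-change bins. Falls outnumber rises below 4-fold with the TMM scaling shown, though not with scaling by library size alone, while 546 rises and 6 falls are fitted at 256-fold or more, a bin that includes genes with no counts at 1 age. The spread among the 18-month animals grows from 0.50 in the smallest rises to 3.81 in the largest.

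The same genes accounted for a large part of the RNA. Genes that rose at least 4-fold made up 1.53% to 1.78% of the counts at 6 months. They made up 34.8%, 13.7% and 25.5% in 18-month replicates 1, 2 and 3, and 34.4% to 36.9% at 4 years. Genes that fell at least 4-fold made up 28.0% to 29.7% at 6 months and 3.47%, 9.35% and 5.93% in the 18-month replicates. In both directions replicate 1 was at the 4-year level, and replicate 2 had moved the least from 6 months.

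The 6-month libraries were the more concentrated ones. Their 100 most abundant genes took 36.9% ± 0.33 (SD, n = 3) of all counts, against 15.0%, 23.9% and 16.7% in the 18-month replicates (18.5% ± 4.73). The ages did not overlap, and an exact two-sided permutation test gave p = 0.1, the smallest that 3 against 3 allows. The number of genes with at least 10 counts was 14806 ± 245 at 6 months and 16166 ± 95.2 at 18 months (exact permutation p = 0.1).

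The genes named first were picked among called genes with no overlap between the ages and a symbol on 1 identifier. Of such genes they were among those with the largest difference in mean CPM. PHF7 (ENSBTAG00000047658), a PHD finger protein of male germ cells, stood at 4.82, 9.93 and 10.3 CPM at 6 months. At 18 months it reached 2827, 664 and 2029 CPM (log2 fold change 7.78 ± 0.65 SE, adjusted p = 6.31e-05). HSPB9 (ENSBTAG00000024979), a small heat shock protein of the testis, went from at most 3.93 CPM to 2480, 407 and 1504 CPM (9.78 ± 1.14). YBX2 (ENSBTAG00000009126), which binds and stores messenger RNA in germ cells, went from at most 5.07 CPM to 1904, 500 and 1308 CPM (8.98 ± 0.99). For each of these genes 18-month replicate 2 was the lowest of its group.

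Other genes of this ranking were already present at 6 months. DKKL1 (ENSBTAG00000012186), a secreted protein of spermatocytes and the acrosome, rose from 80.6, 89.1 and 108 CPM to 2314, 576 and 1587 CPM (4.01 ± 0.49). HDLBP (ENSBTAG00000004315), an RNA-binding protein with many KH domains that is made in most tissues, rose from 315, 383 and 395 CPM to 2160, 722 and 1634 CPM (2.05 ± 0.37). The kinesin motor KIF17 (ENSBTAG00000017644), which carries cargo along microtubules and in germ cells shuttles a coactivator of CREM, rose from 8.03, 11.8 and 12.6 CPM to 2088, 430 and 1246 CPM (6.86 ± 0.63).

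The genes that fell by the most CPM included genes of the matrix, of lipid transport and of translation, beside the Leydig cell hormone INSL3. TIMP2 (ENSBTAG00000010899), an inhibitor of matrix metalloproteinases, fell from 11870, 15496 and 20209 CPM to 712, 2290 and 1143 CPM (log2 fold change -3.52 ± 0.47). SPARC (ENSBTAG00000014835), a collagen-binding glycoprotein, fell from 7695, 9815 and 13540 CPM to 414, 976 and 722 CPM (-3.88 ± 0.39). APOA1 (ENSBTAG00000002258), the main apolipoprotein of high-density lipoprotein, fell from 5245, 6831 and 7674 CPM to 270, 1461 and 585 CPM (-3.09 ± 0.56). In all of them replicate 2 kept the highest level of the 18-month group. They too were picked among genes with no overlap between the ages.

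Translation genes carried much of the difference in composition. Genes named for cytosolic ribosomal proteins held 24.4%, 23.8% and 23.4% of the counts at 6 months. Their share was 4.97%, 14.1% and 8.43% in 18-month replicates 1, 2 and 3, and 4.18% to 4.62% at 4 years. Of 114 tested identifiers out of 247 in the table, 100 fell and 8 rose, with a median log2 fold change of -2.08. Many of these symbols stand on several identifiers, which can be processed copies that share reads. Among the 23 identifiers whose symbol stands once, 21 fell and 1 rose (median -2.03). Scaling by library size alone left 91 lower and 9 higher (median -1.65).

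RPLP1 (ENSBTAG00000018320), a protein of the ribosomal stalk, stood at 7204, 7674 and 8516 CPM at 6 months and at 1514, 3060 and 2023 CPM at 18 months (-1.83 ± 0.29, adjusted p = 0.00084). RPL23 fell from 3070 ± 294 CPM to 411 ± 177 CPM (SD, n = 3 each). The single riser of the 23 was RPL10L (ENSBTAG00000024582), the retrogene copy of X-linked RPL10 that germ cells use in meiosis. It stood at 0, 0.0434 and 0.183 CPM at 6 months and at 272, 64.4 and 192 CPM at 18 months (11.14 ± 0.87, adjusted p = 5.32e-05).

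EEF1A1 (ENSBTAG00000014534), the elongation factor that brings transfer RNA to the ribosome, fell from 25061, 18382 and 22858 CPM to 3406, 5234 and 4527 CPM (-2.33 ± 0.29), and its symbol stands on several identifiers. Genes of mitochondrial translation and of initiation moved in both directions. Of 79 tested genes for mitochondrial ribosomal proteins, 21 rose and 21 fell, with a median of 0.05. MRPS7 (ENSBTAG00000016133) rose from 46.3, 52.1 and 53.5 CPM to 93.6, 98.3 and 105 CPM (0.97 ± 0.15). MRPS11 (ENSBTAG00000019831) fell from 96.1, 82.8 and 113 CPM to 33.2, 38.2 and 36.9 CPM (-1.43 ± 0.16). For both, the 18-month replicates lay close together, and replicate 2 did not stand toward 6 months for MRPS7.

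Of 46 initiation factor genes, 9 rose and 17 fell (median -0.04). EIF4B (ENSBTAG00000006883), which aids the helicase that unwinds 5′ leaders, fell from 1322, 1255 and 1713 CPM to 365, 416 and 393 CPM (-1.87 ± 0.19). EIF5A (ENSBTAG00000002018), the factor that carries hypusine, rose from 117, 113 and 112 CPM to 338, 193 and 278 CPM (1.24 ± 0.22). Proteasome genes (10 higher and 21 lower of 49, median -0.25) and nuclear genes of respiratory complex I (10 higher and 14 lower of 47, median -0.12) also moved in both directions. With scaling by library size alone the balance of these 4 groups turned, to 36 higher and 7 lower for the mitochondrial ribosome, 17 and 12 for initiation factors, 17 and 7 for the proteasome and 16 and 5 for complex I. The direction of these groups depends on the scaling. Without 18-month replicate 2 the initiation factors that rose numbered 14, and without 6-month replicate 1 the falls numbered 11 for the proteasome and 8 for complex I (also 8 without 6-month replicate 3).

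The agreement of the 18-month replicates differed between stages of germ cell development. The median range of log2 CPM over the 3 libraries was 1.29 for spermatogonial genes, 0.93 for early meiotic prophase, 1.64 for pachytene, 3.74 for round spermatids and 4.23 for elongating spermatids. Over all genes that rose it was 2.17 at 16-fold to 64-fold, 2.93 at 64-fold to 256-fold and 3.81 at 256-fold or more. Stage and size of change were not separated. Lists of genes known from 5 stages were used, and their tested members are given as mean log2 CPM per library. Early meiotic prophase genes, which build the synaptonemal complex and make and repair the programmed breaks, stood at -0.19, 0.86 and 0.35 at 6 months and at 4.72, 4.07 and 4.53 at 18 months. Of 30 tested identifiers of this list 29 rose and 1 fell, with a median log2 fold change of 4.20. Several of the 29 share the symbol PRDM9, and most of these stood at no more than 2.20 CPM at either age. Replicate 2 stood closer to the others here than in the later lists. Of the 29, 19 spanned less than 1 over the 18-month libraries, PRDM9 identifiers among them. STAG3, with a range of 0.96, still stood at 490, 253 and 385 CPM at 18 months.

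Later stages spread further. Pachytene genes went from 1.05, 1.57 and 1.5 to 7.01, 5.58 and 6.66, and 22 of 23 rose (median 5.89). Round spermatid genes went from -2.23, -1.67 and -1.29 to 6.12, 2.71 and 4.99, and 24 of 24 rose (median 7.30). Elongating spermatid genes, which serve chromatin compaction, the acrosome and the tail, went from -1.79, -1.16 and -0.58 to 7.82, 3.86 and 6.56, and 31 of 31 rose (median 8.86). Replicate 2 was the lowest 18-month library for 21 of the 29 prophase identifiers that rose and 21 of 22 pachytene genes. It was also the lowest for all 24 round spermatid genes and all 31 elongating spermatid genes. A range of more than 2 was seen for 1 of the 29 prophase identifiers and 7 of 22 pachytene genes. It was seen for 22 of 24 round spermatid genes and 30 of 31 elongating spermatid genes.

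HORMAD1 (ENSBTAG00000002724), a protein of the meiotic chromosome axis, went from 0.591, 1.65 and 1.46 CPM to 65.5, 30.4 and 58.7 CPM (5.38 ± 0.44). TDRD1 (ENSBTAG00000006855), a tudor protein of the piRNA pathway, went from 4.73, 9.84 and 5.07 CPM to 254, 114 and 223 CPM (4.91 ± 0.41). SPAG6 (ENSBTAG00000033291), of the central pair of the axoneme, went from 0.718, 1.95 and 0.731 CPM to 173, 30.6 and 114 CPM (6.54 ± 0.72). Replicate 2 was the lowest 18-month library for all of them and was furthest below the others for SPAG6.

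DPY19L2 (ENSBTAG00000032650), which anchors the acrosome to the nucleus, reached 247, 53.3 and 158 CPM from at most 2.21 CPM (6.61 ± 0.75). CCIN (ENSBTAG00000021696), calicin of the sperm head cytoskeleton, reached 488, 31.5 and 191 CPM from at most 1.28 CPM (7.80 ± 1.00). ROPN1 (ENSBTAG00000006947), a fibrous sheath protein, reached 472, 63.6 and 248 CPM from at most 1.01 CPM (8.86 ± 0.88). For each of these the 3 animals of 18 months differed widely among themselves, yet all stood above the 6-month range.

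The spermatogonial list had another order of replicates in its mean. Its mean log2 CPM was 2.48, 3.26 and 2.64 at 6 months and 3.73, 4.76 and 4.21 at 18 months, highest in replicate 2. Of 15 genes 9 rose and 2 fell (median 1.22), and of the 9 that rose 6 were highest and 3 lowest in replicate 2. DMRTB1 (ENSBTAG00000009062) had the smallest p and rose from 0.76, 2.25 and 0.777 CPM to 64, 53.5 and 63.2 CPM (5.57 ± 0.43). SOHLH2 (ENSBTAG00000018955), a transcription factor of differentiating spermatogonia, rose from 2.53, 5.20 and 2.97 CPM to 86.1, 39.4 and 64.5 CPM (4.15 ± 0.38). Both were lowest in replicate 2, while the next pair was highest there. SOHLH1, the partner of SOHLH2, at a locus assembled by StringTie, rose from 4.22, 13.9 and 7.54 CPM to 23.8, 72.7 and 36.0 CPM (2.37 ± 0.50). ID4 (ENSBTAG00000052562), known from spermatogonial stem cells, rose from at most 0.78 CPM to 2.06, 5.13 and 3.83 CPM (2.48 ± 0.45). KIT (ENSBTAG00000002699), the receptor of differentiating spermatogonia that Leydig cells also carry, fell from 127, 133 and 146 CPM to 47.8, 63.8 and 44.8 CPM (-1.38 ± 0.18).

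**Figure D2:**
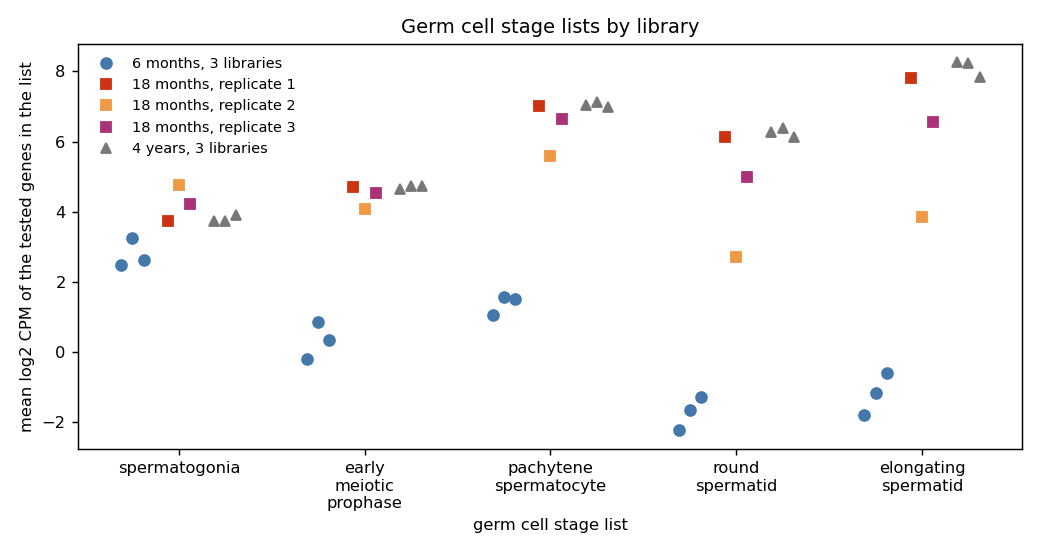
Mean log2 CPM of the tested genes of each germ cell stage list (x axis) in each library, with circles for the 3 Y6M libraries, squares for the Y18M replicates and triangles for the 3 Y4Y libraries. The 18-month replicates lie between 4.07 and 4.72 for early meiotic prophase and between 3.86 and 7.82 for elongating spermatids. Replicate 2 is the highest of the 3 for spermatogonia and the lowest for every later list.

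Among the called genes the 18-month replicates mostly kept 1 order. Among the 5481 genes that rose, replicate 2 was nearest to 6 months for 83.6% and replicate 1 farthest for 79.3%, and the whole order of replicates 1, 3 and 2 held for 75.4%. Among the 4545 that fell, replicate 2 was nearest for 77.9% and that order held for 69.0%. The median log2 change of the genes that rose was 2.87, 1.53 and 2.40 in replicates 1, 2 and 3, and of those that fell -2.0, -1.05 and -1.54. All 3 replicates lay above the 6-month range for 5140 of the rises and below it for 4492 of the falls. Over all tested genes 65.1% had no overlap between the ages. The size was shared less often: all 3 replicates passed 4-fold for 1996 rises and 609 falls. A range over 4 was met by 457 rises and 6 falls.

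Some genes took the same level in all 3 animals of 18 months. These were chosen for the smallest range among genes changed at least 4-fold, so that their agreement is a description. COX8C (ENSBTAG00000053789), a testis form of a cytochrome c oxidase subunit, stood at 0.169, 2.38 and 1.51 CPM at 6 months and at 38.1, 38.5 and 39.1 CPM at 18 months (4.83 ± 0.66). DAZL (ENSBTAG00000000502), an RNA-binding protein of germ cells, went from 5.03, 15.0 and 6.13 CPM to 92.0, 97.5 and 95.9 CPM (3.45 ± 0.39). BRME1 (ENSBTAG00000006064), which works in meiotic recombination, reached 33.6, 35.7 and 34.9 CPM from at most 11.5 CPM (2.19 ± 0.30). UROS (ENSBTAG00000005791), an enzyme of heme synthesis, reached 19.1, 18.3 and 18.3 CPM from at most 4.29 CPM (2.27 ± 0.23).

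Among the falls, LHFPL2 (ENSBTAG00000007374) went from 64.8, 52.2 and 69.7 CPM to 15.3, 15.3 and 15.4 CPM (-2.02 ± 0.22). MEX3B (ENSBTAG00000052904), an RNA-binding protein known from Sertoli cells, went from 69.5, 69.2 and 77.6 CPM to 18.6, 17.4 and 17.7 CPM (-2.01 ± 0.15). PTGR1 (ENSBTAG00000011027), a reductase of prostaglandins and leukotrienes, went from 108, 94.8 and 108 CPM to 14.1, 14.2 and 13.3 CPM (-2.90 ± 0.27).

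The least steady genes were of another kind. Among genes of at least 10 CPM at either age, 5 of the 6 called genes with the widest range were mitochondrially encoded. COX2 (ENSBTAG00000043556), a cytochrome c oxidase subunit, was at 0.253, 0.173 and 1.23 CPM at 6 months and at 0.232, 1721 and 0.681 CPM at 18 months. ND1 (ENSBTAG00000043558), of complex I, was at 0.0845, 0.173 and 0.411 CPM at 6 months and at 0.332, 1276 and 0.389 CPM at 18 months. Both calls (10.02 ± 3.09 and 10.89 ± 3.21) rest on replicate 2, and neither gene passed without it. The same holds for ND2, COX3 and ND4, and for COX1, which was added after its values were seen. In replicates 1 and 3 none of these 6 genes exceeded its highest 6-month value.

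The remaining gene, ABHD16B (ENSBTAG00000031906), a hydrolase of the abhydrolase family, had no count at 6 months and 116, 0 and 42.1 CPM at 18 months. Taken over the group it was at least 1219-fold higher, with 3 counts as the floor at 6 months. Its adjusted p was 0.011, with replicate 2 at 0 as in the 6-month libraries. Of the wide-ranging genes that were not called, IRF9 (ENSBTAG00000005816), a transcription factor of interferon signalling, stood at 31.0, 38.4 and 18.7 CPM and then at 0, 13.9 and 3.83 CPM (-2.32 ± 1.34, adjusted p = 0.174). PTPRCAP (ENSBTAG00000004782), a partner of the leukocyte phosphatase CD45, stood at 29.1, 24.5 and 10.9 CPM and then at 0, 5.34 and 0 CPM (-3.60 ± 1.70, adjusted p = 0.107). Both passed without replicate 2.

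Gene families were formed from symbols. Of 133 families with at least 5 tested genes, 36 had more than 1 in 2 members called higher and 13 more than 1 in 2 called lower. The count of 13 was 24 without 18-month replicate 2, 5 without 18-month replicate 3 and 8 without 6-month replicate 1 or 2. In 114 families members were called in both directions. The families chosen are given with their counts and medians, to be read beside 32.7% of all tested genes called higher, 27.1% called lower and a median log2 fold change of 0.02 over all genes.

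The axoneme, the microtubule core of the sperm tail, rose across its parts. Dynein heavy chains, the motors, rose in 11 of 14 (median 4.66), and intermediate and light chains in 6 of 8 (4.3). Radial spoke and dynein regulatory complex genes rose in 9 of 10 (5.70), tektins, which line the inside of doublet microtubules, in 5 of 5 (7.50) and cilia and flagella associated proteins in 38 of 47 with 1 lower (3.77). The median changes of the dynein heavy chains in 18-month replicates 1, 2 and 3 were 5.31, 3.82 and 4.36, and those of the tektins 8.35, 5.08 and 7.25.

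DNAH2 (ENSBTAG00000008605), an inner-arm heavy chain, went from 1.44, 4.12 and 2.29 CPM to 130, 88.1 and 124 CPM (5.44 ± 0.40). DRC3 (ENSBTAG00000008798), of the complex that links doublets, went from 0.676, 0.954 and 0.914 CPM to 136, 50.9 and 100 CPM (6.81 ± 0.41). TEKT2 (ENSBTAG00000021714) went from 0.887, 1.60 and 1.37 CPM to 433, 58.0 and 221 CPM (7.52 ± 0.76). The 18-month range of log2 CPM was 0.56 for DNAH2, 1.42 for DRC3 and 2.90 for TEKT2.

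Within the cilia and flagella family the members did not share 1 direction. CFAP74 (ENSBTAG00000005231) rose from at most 0.564 CPM to 106, 41.7 and 90.6 CPM (7.75 ± 0.51). CFAP276 (ENSBTAG00000001135), a protein inside doublet microtubules, was the 1 member that fell, from 732, 662 and 574 CPM to 118, 323 and 172 CPM (-1.68 ± 0.34, adjusted p = 0.0026). Intraflagellar transport genes, which build cilia and the sperm tail, rose in 12 of 15 with a smaller median of 1.33. IFT140 (ENSBTAG00000007245) rose from 15.0, 18.1 and 15.4 CPM to 294, 108 and 252 CPM (3.75 ± 0.36). IFT46 (ENSBTAG00000012941) fell from 67.9, 55.6 and 74.9 CPM to 29.1, 26.9 and 30.0 CPM (-1.21 ± 0.17), with close agreement among the animals.

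Tubulin genes, for the building blocks of microtubules, took 0.448% to 0.505% of the counts at 6 months and 0.447% to 0.469% at 18 months. On the TMM scale their summed level was 5168, 5284 and 6241 CPM at 6 months and 4265, 3933 and 3955 CPM at 18 months, lower without overlap. Of 22 tested, 9 rose and 8 fell (median 0.33), or 11 and 5 with scaling by library size alone. TUBA1B (ENSBTAG00000012244), a widely used alpha-tubulin, fell from 1497, 1274 and 1542 CPM to 151, 428 and 251 CPM (-2.38 ± 0.36). TUBA3E (ENSBTAG00000030979), an alpha-tubulin of a testis-rich group, rose from 3.93, 9.93 and 4.39 CPM to 1205, 405 and 904 CPM (7.11 ± 0.58). The ligases that add glutamate or glycine to tubulin rose in 11 of 12 (median 3.61).

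Kinesins rose in 30 of 44 and fell in 4 (median 1.54; 7 fell without 18-month replicate 2, and 2 without 6-month replicate 2 or 18-month replicate 3), and centrosome and centromere proteins rose in 41 of 60 and fell in 2 (1.41). CEP83 (ENSBTAG00000004484), which docks centrioles to the membrane, rose from 12.4, 14.7 and 16.2 CPM to 256, 158 and 186 CPM (3.79 ± 0.24).

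Families known from spermatids and the sperm head also rose. Actin-like and actin-related testis genes had a median of 9.01, with 7 of 9 higher and 2 lower. ACTL7B (ENSBTAG00000019467), which acts in the cytoskeleton below the acrosome, rose from 0.549, 0.434 and 1.46 CPM to 836, 72.0 and 358 CPM (9.02 ± 1.04). ACTL6B (ENSBTAG00000008295), a subunit of a chromatin remodelling complex and not a sperm structure, fell from 3.42, 3.08 and 3.61 CPM to 0.531, 0.889 and 1.17 CPM (-1.96 ± 0.41). The other member that fell, ACTRT3 (-0.68 ± 0.22), lost its call in 8 alternative analyses.

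Testis-specific serine kinases, which act after meiosis, rose in 5 of 5 (median 8.44), and their medians were 9.61, 5.86 and 8.45 in replicates 1, 2 and 3. TSSK1B (ENSBTAG00000045955) went from 0.0422, 0.26 and 0.823 CPM to 254, 22.2 and 113 CPM (8.44 ± 1.12). Genes with an IQC symbol, named for the IQ motif that binds calmodulin, rose in 16 of 16 (4.93). Other genes with an IQ motif were not counted there. CatSper genes, for the calcium channel of the sperm tail, rose in 8 of 9 (4.90). The SPATA genes rose in 27 of 31 (5.61), and the TEX genes in 30 of 35 with 1 lower (6.64, or 6.01 with 4 genes without counts at 6 months at their bound). TEX101 (ENSBTAG00000016777), a surface protein of germ cells, went from 0.845, 2.08 and 0.823 CPM to 161, 85.0 and 130 CPM (6.64 ± 0.45). The spread among replicates was smaller for TEX101 (range 0.93) than for TSSK1B (range 3.51).

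**Figure D3:**
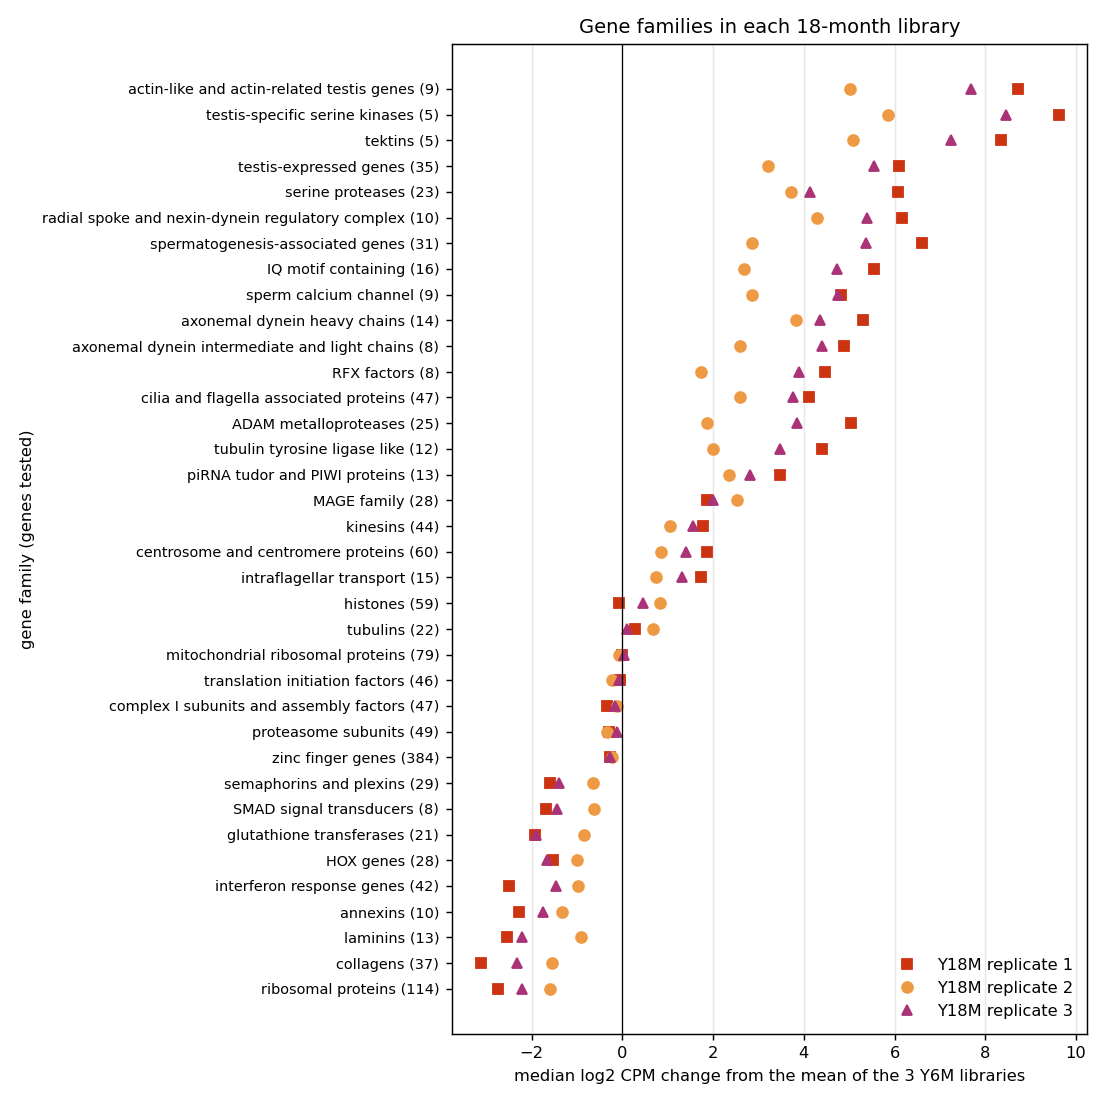
Median log2 CPM change from the mean of the 3 Y6M libraries (x axis) for the tested genes of each family (y axis, number tested in brackets), with 1 point for each Y18M replicate. In the families that rise most, such as the tektins at 8.35, 5.08 and 7.25, replicate 2 lies left of the others, and in the collagens at -3.12, -1.55 and -2.32 it lies nearest to 0. The MAGE genes at 1.86, 2.53 and 2.01 place replicate 2 highest.

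ADAM genes, membrane proteases and adhesion proteins, rose in 15 of 25 and fell in 6 (median 3.70). ADAM2 (ENSBTAG00000009408), fertilin beta of the sperm surface, rose from at most 0.594 CPM to 206, 42.0 and 143 CPM (9.0 ± 0.89). ADAM12 (ENSBTAG00000012444), a metalloprotease of mesenchymal cells, fell from 39.6, 45.0 and 41.8 CPM to 1.56, 3.66 and 2.37 CPM (-4.06 ± 0.35). ADAM9 (ENSBTAG00000017455), made in many tissues, fell by 2.13 ± 0.21 on the log2 scale.

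Serine proteases of the PRSS series rose in 17 of 23 and fell in 3 (median 6.48, or 5.78 with 1 gene at its bound). PRSS38 (ENSBTAG00000013977) rose from at most 0.434 CPM to 45.4, 21.7 and 37.4 CPM (6.56 ± 0.36). PRSS42 (ENSBTAG00000031454), a protease known from spermatocytes, rose from 1.27, 1.04 and 0.96 CPM to 12.3, 11 and 12.8 CPM (3.46 ± 0.32). In PRSS42 the 3 animals of 18 months were at nearly the same level.

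Regulators of transcription moved in part with the ciliary genes. Genes with an RFX symbol, several of which bind the promoters of ciliary genes, rose in 6 of 8 and fell in 1 (median 3.87). Of the 7 tested genes that the deposited annotation classes as RFX factors, 5 rose and 1 fell (median 2.78). RFX2 (ENSBTAG00000017661), which spermatids need, rose from 5.66, 6.42 and 5.81 CPM to 251, 90.9 and 215 CPM (4.96 ± 0.40). RFX7 fell by 0.81 ± 0.20 on the log2 scale, a call lost with scaling by library size alone. The tudor and PIWI genes of the piRNA pathway rose in 10 of 13 (2.84). TDRD9 (ENSBTAG00000020402), a helicase that silences transposons, rose from 5.53, 9.10 and 5.03 CPM to 393, 138 and 249 CPM (5.31 ± 0.44).

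MAGE genes, many of them X-linked and known from germ cells and tumours, rose in 16 of 28 and fell in 6 (median 2.45). Here replicate 2 had the highest median, 2.53 against 1.86 and 2.01. MAGED2 (ENSBTAG00000039888), a member made in most tissues, fell from 412, 421 and 463 CPM to 25.1, 97.4 and 52.8 CPM (-2.89 ± 0.42). Histone genes rose in 20 of 59 and fell in 8, or 14 without 18-month replicate 2 (median 0.49). H3-4 (ENSBTAG00000055153), the testis form of histone H3, rose from 4.56, 9.71 and 6.76 CPM to 85.0, 67.7 and 73.2 CPM (3.42 ± 0.31).

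Zinc finger genes, the most numerous family, rose in 82 of 384 and fell in 120 (median -0.27). With scaling by library size alone the split was 120 higher and 46 lower (0.13), so that their direction depends on the scaling.

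Extracellular matrix genes fell. Collagens fell in 23 of 37 and rose in 5 (median -2.03; -3.12, -1.55 and -2.32 in replicates 1, 2 and 3). Their share of the counts was 0.829% to 0.919% at 6 months and 0.0937%, 0.255% and 0.142% at 18 months. COL4A2 (ENSBTAG00000025210), of basement membranes, fell from 432, 457 and 460 CPM to 15.2, 36.2 and 15.4 CPM (-4.34 ± 0.41). COL6A6 (ENSBTAG00000012837), of beaded filaments, fell from 38.4, 49.3 and 19.5 CPM to 1.76, 1.68 and 1.01 CPM (-4.59 ± 0.40). Fibroblast and Leydig markers fell in the same libraries: the mean log2 CPM of the fibroblast list was 7.80 to 8.11 at 6 months and 3.56, 5.44 and 4.48 at 18 months. The part of these cells in the fall of the matrix genes was not tested.

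Laminins, the other main proteins of basement membranes, fell in 9 of 13 and rose in 4, or 2 without 6-month replicate 3 (median -2.01). LAMB1 (ENSBTAG00000011412) fell from 494, 447 and 513 CPM to 23.5, 102 and 47.6 CPM (-3.07 ± 0.47). LAMA3 (ENSBTAG00000027181), known from epithelial laminin and from junctions of Sertoli cells with spermatids, rose from 4.69, 3.90 and 4.89 CPM to 77.4, 15.2 and 28.0 CPM (3.16 ± 0.53). COL22A1, a collagen of tissue junctions at an assembled locus, rose likewise from 3.68, 3.90 and 2.88 CPM to 83.8, 10.8 and 30.9 CPM (3.58 ± 0.65).

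Further families of somatic cells fell in part. Annexins, which bind membranes through calcium, fell in 8 of 10 (median -1.61), and ANXA6 (ENSBTAG00000014809) went from 370, 298 and 359 CPM to 41.4, 105 and 73.1 CPM (-2.23 ± 0.31). Glutathione transferases, which conjugate reactive compounds, fell in 14 of 21 and rose in 2 (-1.47). MGST2 (ENSBTAG00000021779) fell from 78.4, 54.6 and 108 CPM to 3.52, 7.70 and 7.91 CPM (-3.65 ± 0.41). GSTT4 (ENSBTAG00000000170) rose from 4.56, 5.07 and 6.17 CPM to 217, 30.0 and 126 CPM (4.56 ± 0.63). The annexins and glutathione transferases, with the collagens and the cytosolic ribosomal proteins, were the 4 families with more than 1 in 2 members lower with scaling by library size alone, against 13 with TMM scaling. Without 6-month replicate 1, 5 annexins fell.

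HOX genes, which set position along the body axis, fell in 13 of 28 and rose in 3 (median -1.58). HOXD3 (ENSBTAG00000004835) fell from 19.9, 24.4 and 26.0 CPM to 2.65, 4.55 and 3.70 CPM (-2.69 ± 0.26). HOXA11 (ENSBTAG00000014738) rose from 0.211, 1.04 and 0.32 CPM to 54.6, 10.2 and 48.0 CPM (6.15 ± 0.78). HOXB9 (ENSBTAG00000054623) rose from at most 0.997 CPM to 23.7, 4.24 and 9.66 CPM (4.05 ± 0.61). HOXD9 (ENSBTAG00000016033) fell by 2.52 ± 0.36 on the log2 scale. The falls of the family numbered 8 without 18-month or 6-month replicate 3.

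SMAD genes, which carry signals of TGF-beta and BMP receptors, fell in 5 of 8 (median -1.14), or in 3 with scaling by library size alone. SMAD5 (ENSBTAG00000055062), of the BMP branch, fell from 121, 100 and 121 CPM to 33.6, 61.0 and 46.0 CPM (-1.28 ± 0.24). Semaphorins and plexins, ligands and receptors of cell guidance, fell in 16 of 29 and rose in 1 (-1.12), or 9 and 5 with scaling by library size alone. SEMA6D (ENSBTAG00000016800) fell from 93.1, 90.7 and 98.4 CPM to 5.14, 14.5 and 7.07 CPM (-3.40 ± 0.36), while SEMA4G (ENSBTAG00000018604) rose by 2.31 ± 0.38 on the log2 scale.

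Interferon response genes fell in 23 of 42 and rose in 2 (median -1.60), and in replicates 1, 2 and 3 their medians were -2.49, -0.97 and -1.46. IFIT5 (ENSBTAG00000017367), an RNA-binding antiviral protein, fell from 68.4, 62.0 and 65.2 CPM to 14.2, 27.5 and 19.6 CPM (-1.67 ± 0.25). The members that rose were OASL (2.88 ± 0.80) and IFITM5 (2.09 ± 0.30), the latter a membrane protein known from bone-forming cells and not from an interferon response. With scaling by library size alone 15 fell and 4 rose, and 15 fell without 6-month replicate 1 or 18-month replicate 3.

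Pairs of genes, most of them paralogs, were compared next. Each of 67 pairs set a widely used form (first) beside a form known from germ cells (second), or paired 2 forms of 1 protein. Some pairs, such as PSME1 with PSME4 and ARPC1A with ARPC5L, are not paralogs and share only a complex or a task. In 55 pairs both were tested. In 22 pairs the second form rose and the first fell, in 13 the second rose and the first was not called, in 8 both rose and in 3 both fell. In 1 pair, listed with the germ cell form PSMA8 first, the first form rose and the second fell. Second forms rose in 43 pairs and fell in 6, against 10 and 28 for first forms. With scaling by library size alone, 14 pairs had a rising second and a falling first form. Levels are given here in FPKM, which divides by gene length and was not rescaled between libraries, while fold changes come from the scaled counts.

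PDHA1 (ENSBTAG00000019852), the X-linked alpha subunit of pyruvate dehydrogenase, fell from 22.2, 17.3 and 20.9 FPKM to 5.72, 11.9 and 9.20 FPKM (-1.73 ± 0.21). Its autosomal retrogene PDHA2 (ENSBTAG00000026250) rose from 0.223, 0.052 and 0.051 FPKM to 264, 26.7 and 142 FPKM (9.94 ± 1.06). CETN2 (ENSBTAG00000007844), a centrin of centrioles, fell from 40.4, 36.4 and 29.2 FPKM to 9.97, 25.3 and 19.3 FPKM (-1.39 ± 0.29). CETN1 (ENSBTAG00000012320), its germ cell form, rose from 0.074, 0.625 and 1.27 FPKM to 1216, 264 and 866 FPKM (9.78 ± 1.02). In each pair the germ cell form was by far the lower one at 6 months and the higher one in every 18-month library.

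Cohesin, the ring that holds sister chromatids, changed likewise. SMC1A (ENSBTAG00000017761) fell from 10.2, 8.26 and 9.16 FPKM to 2.37, 6.05 and 3.40 FPKM (-1.84 ± 0.33). SMC1B (ENSBTAG00000024132), its meiotic form, rose from 0.399, 0.886 and 0.267 FPKM to 22.2, 13.3 and 19.3 FPKM (4.75 ± 0.44). The fall of the kleisin RAD21 (-0.77 ± 0.25, adjusted p = 0.0248) lost its call in 6 alternative analyses, and its meiotic relative RAD21L1 rose by 3.71 ± 0.36.

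Chaperones of the endoplasmic reticulum and the cytosol were also paired this way. CANX (ENSBTAG00000048107), calnexin, fell from 204, 209 and 269 FPKM to 66.4, 127 and 100 FPKM (-1.70 ± 0.24). CLGN (ENSBTAG00000001580), calmegin, its germ cell relative, rose from 26.3, 32.3 and 47.9 FPKM to 541, 163 and 430 FPKM (3.01 ± 0.47). HSPA8 (ENSBTAG00000013162), the constitutive HSP70 listed with HSPA1L, fell from 1172, 990.1 and 1095 FPKM to 312, 620 and 547 FPKM (-1.57 ± 0.26), and HSPA2 (ENSBTAG00000007807), the meiotic HSP70 listed with HSPA5, rose from 3.63, 5.73 and 7.84 FPKM to 96.1, 54.8 and 84.4 FPKM (3.36 ± 0.35). HSPA8 was still above HSPA2 in every 18-month library.

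The proteasome activators PSME1 and PSME4, which are not paralogs, also changed in opposite directions. PSME1 (ENSBTAG00000021395), of the interferon-inducible activator, fell from 377, 339 and 304 FPKM to 77.6, 187 and 127 FPKM (-1.82 ± 0.27). PSME4 (ENSBTAG00000020262), the activator PA200 that acts on acetylated histones in spermatids, rose from 10.4, 9.94 and 11 FPKM to 78.5, 31.2 and 57.4 FPKM (2.01 ± 0.33). CREM (ENSBTAG00000016060), the transcription factor of spermatid genes, rose from 1.07, 0.985 and 1.58 FPKM to 179, 22.0 and 105 FPKM (5.89 ± 0.74). The fall of its relative CREB1 (-1.03 ± 0.24) was lost with scaling by library size alone. Of the growth factors, IGF1 (ENSBTAG00000011082) fell by 2.20 ± 0.35 on the log2 scale and IGF2 (ENSBTAG00000013066) by 1.75 ± 0.45.

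**Figure D4:**
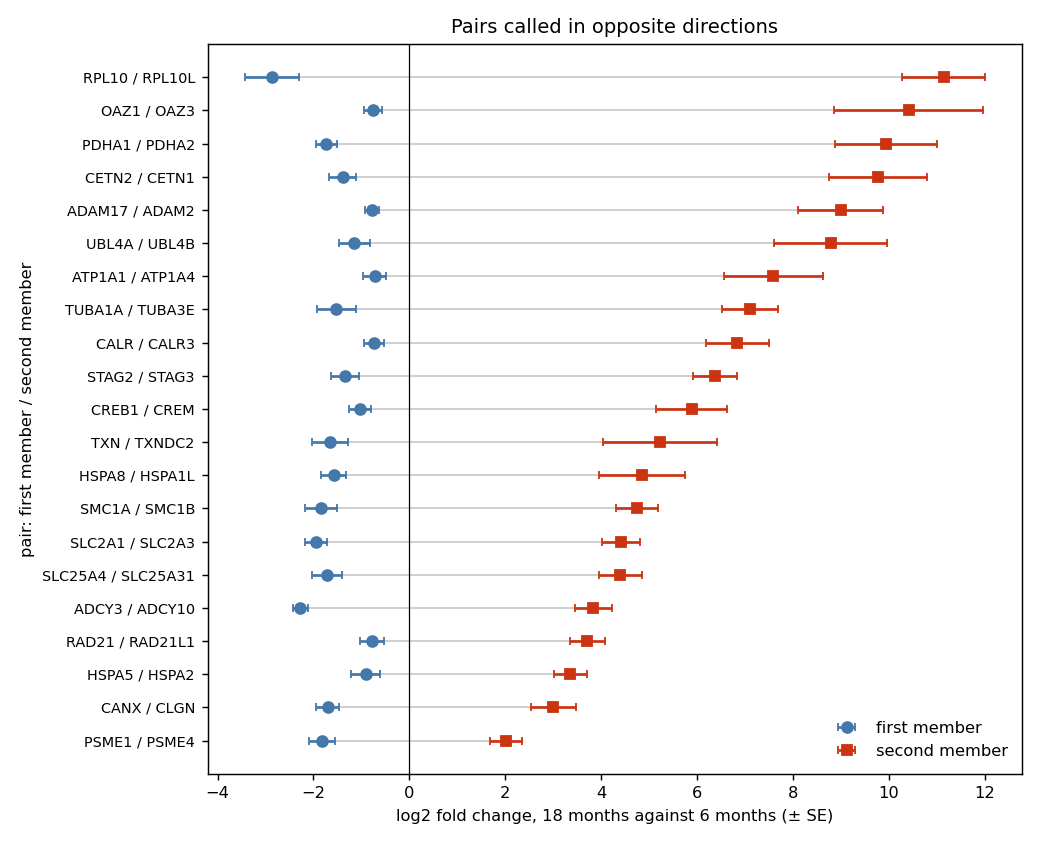
Log2 fold change at 18 months against 6 months (x axis, bars ± SE) of both forms in the pairs whose first form fell and second form rose, with circles for first and squares for second forms. A pair whose second form had no count at 6 months is left out. The first forms lie below 0 and the second forms above it, as for PDHA1 at -1.73 and PDHA2 at 9.94.

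X-linked genes fell more often than autosomal genes. A chromosome was known for 9466 of the tested genes (56.5%), those named as hosts of circular RNA in a further deposited table. Of 293 X-linked genes among them, 152 fell (51.9%) and 44 rose (15.0%), with a median log2 fold change of -0.88. Of 9172 autosomal genes, 27.1% fell and 33.4% rose (median 0.08). The autosomal medians lay between -0.31 for chromosome 28 and 0.43 for chromosome 25. The X-linked median was -1.38, -0.47 and -0.91 in 18-month replicates 1, 2 and 3, below 0 in each and nearest to it in replicate 2. With scaling by library size alone, the medians were -0.47 for X-linked and 0.48 for autosomal genes, with 99 X-linked genes lower. Without replicate 2 the X-linked median was -1.06. Hosts of circular RNA are not a random part of the genes, and the part of the falling somatic cell markers in this difference was not tested.

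The X-linked genes that fell serve different tasks. NSDHL (ENSBTAG00000009231), an enzyme of cholesterol synthesis, fell from 90, 127 and 149 CPM to 13.2, 17.9 and 17.6 CPM (-2.91 ± 0.23). NRK (ENSBTAG00000004836), a kinase of the germinal centre kinase group, fell from 584, 382 and 481 CPM to 10.7, 34.4 and 28.4 CPM (-4.30 ± 0.46). The replicates agreed more closely for NSDHL than for NRK.

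A smaller number of X-linked genes rose in all 3 animals. VSIG1 (ENSBTAG00000007859), an adhesion protein of the immunoglobulin family, rose from 2.20, 0.824 and 0.686 CPM to 141, 159 and 200 CPM (7.07 ± 0.47), and replicate 2 was not the lowest. FMR1NB (ENSBTAG00000034045), a cancer-testis gene, rose from 6.93, 12.1 and 9.60 CPM to 52.5, 70.2 and 60.4 CPM (2.68 ± 0.24), highest in replicate 2. NXF3 (ENSBTAG00000022502), a nuclear export factor, had 3 counts in all at 6 months and reached 55.9, 28.6 and 47.0 CPM. Its ratio was 1006-fold, with a 95% counting interval of 344 to 4883, which covers counting error only.

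**Figure D5:**
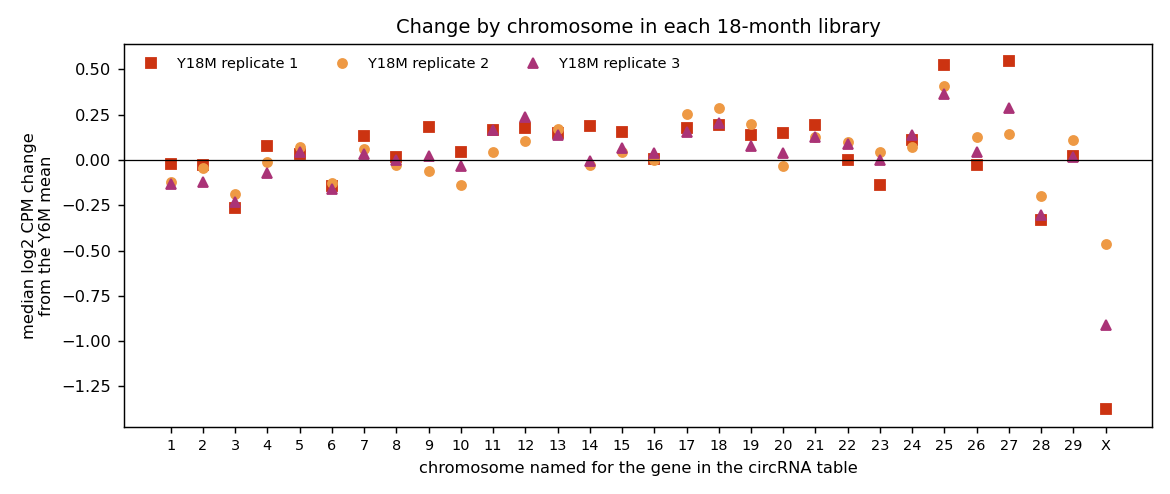
Median log2 CPM change from the Y6M mean (y axis) of the tested genes on each chromosome (x axis), with 1 point for each Y18M replicate. The X chromosome lies lowest, at -1.38, -0.47 and -0.91 in replicates 1, 2 and 3.

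Loci assembled from the reads took part in the rise more often than annotated genes. Of 492 tested StringTie loci 343 rose and 65 fell, and 82.9% were called with a median log2 fold change of 4.99. Of 16098 annotated genes with a symbol, 5077 rose and 4455 fell, and 59.2% were called (median -0.01). Which libraries the loci were assembled from was not analysed here.

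The authors' deposited table for this comparison lists 7668 genes, 5353 higher and 2315 lower at 18 months. Of those listed, 7448 (97.1%) were called here, which is 74.3% of the calls made here, and 7442 of them had the same direction in the authors' deposited table. A further 2578 genes were called here and are not on that list.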

How the data were processed

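RNA from testis of 9 yaks was depleted of ribosomal RNA and sequenced paired-end, per the labels' protocols. The authors deposited estimated counts per gene, in which 3137 genes have values that are not whole, and FPKM values beside them. The authors' deposited table of this comparison gives a log2 fold change, p-value and FDR for each listed gene. The submitters' processing notes name fastp 0.18.0, HISAT2 2.1.0, StringTie 1.3.4 and build UMD3.1, a cattle genome, and the counting program is not given in the sources used here. Reads of copies of a gene may therefore be split in ways not known here.

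Counts were rounded, filtered by expression, scaled by TMM and tested with edgeR 4.0.16 (R 4.3.3) in 1 quasi-likelihood model of all 9 libraries with age as the only term and 6 residual degrees of freedom. P-values were adjusted by Benjamini-Hochberg over 16742 genes, and a standard error is the log2 fold change divided by the square root of F. CPM values are TMM-scaled, and log2 CPM used a prior count of 2. On counts simulated for this comparison over 16742 genes, 87 of 100 genes changed by 3 on the log2 scale were recovered. Of 100 genes changed by 5, 98 were recovered, and there were 8 false calls. Only these few genes were changed in the simulation, whereas 59.9% of the tested genes were called in the data. Its recovery and false calls are therefore not error rates of the real comparison. How they hold under the wider spread of the older group was not tested. Alternatives used DESeq2 1.42.0, limma 3.58.1 voom, other scalings and filters, a replicate term, and 1 replicate left out at a time.

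Genes were named as those with the largest change in CPM among called genes with no overlap between the ages. Others had the smallest or the largest spread among the 18-month libraries. Up to 3 members per family, stage list and direction were taken by smallest p. RPL23, HORMAD1, TDRD1, DPY19L2, CCIN, KIT, ID4, SOHLH1 and COX1 stand outside these ranks and were chosen after their values were seen. SPAG6 had rank 4 by p in the round spermatid list. Only part is printed, and symbols on several identifiers were mostly left out. The genes, families, stage lists and pairs were chosen with earlier results of these data known, and kinases, binding proteins and complex partners swept in by symbol were removed from 4 families after their values were seen. Analyses of X-linked genes, mitochondrial genes and stage lists under the alternatives were chosen after seeing the data. The circular RNA table served only to place genes on chromosomes.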

Additional observations from a re-analysis of the deposited data

How the results depend on the processing

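Over 3203 alternative values, 3040 kept their direction and their side of the threshold, or stayed within 1.5 times for counts. Many of these values belong to printed genes, largely picked for a small p or a large change. Their stability was partly fixed by that choice, and the alternatives for concentration were counted as kept without a check. Of the 10026 calls, 80.8% (library size alone) to 99.4% (limma voom) were also made under an alternative, and 82.7% with the 6 libraries only. Called genes numbered 8311 with the 6 libraries only, 10779 with DESeq2, 10021 with RLE size factors, 9885 without the low-count filter, 13263 with limma voom and 8399 to 11953 with 1 replicate left out (11953 without Y18M replicate 2). The share of calls that rose was 54.7%, and 72.6% with scaling by library size alone, where 2618 genes were called lower and the median log2 fold change of all genes moved from 0.02 to 0.43. The count of gene families with more than 1 in 2 members called 1 way moved from 49 to 78 with limma voom. That of gene pairs in opposite directions moved from 22 to 14 with library size alone. The cause was not tested. The concentration of the library, as the difference between the ages in the share of the 100 most abundant genes, was -18.4 percentage points and lay between -21.0 and -16.6 with 1 replicate left out. For the mitochondrially encoded genes, the log2 fold change without Y18M replicate 2 was -0.14 for COX2, -0.97 for ND2, -0.34 for COX3, -0.64 for ND4 and -0.99 for COX1, against highest values of 11.36, 8.60, 7.77, 6.52 and 5.96 with another replicate left out, and with limma voom it was -0.99 for ND2, -0.30 for ND4 and -0.70 for COX1. Replicate numbers did not pair the animals (r of deviations for numbers 1, 2 and 3: -0.135, 0.0325 and 0.104); with the replicate block, 9439 genes were called, 5093 higher and 4346 lower.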
